A study of Mus musculus with 6 samples.

Results

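DNA transposons are the class of mobile elements that move as DNA, and their RNA was compared here between mouse induced pluripotent stem cells (iPSCs) with and without serum response factor (SRF). The elements were taken from the rows of the count table whose name gives DNA as the class, with a mean of at least 10 counts over the 6 libraries. That rule held for 148 subfamilies of 197 rows with this class, in a table of 25567 genes and subfamilies. They belonged to 12 families, of which hAT-Charlie had 64 members, TcMar-Tigger 40 and hAT-Tip100 17. The other families had between 1 and 7 each. The 49 rows under the minimum, 8 of them at 0 in every library, were left aside, as were 21 rows whose class is marked as uncertain. Just inside the rule lay Charlie11 and Charlie29a, each with a mean of 10.3 counts, and just outside it Tigger11a with 9.0 and Charlie4 with 8.83.

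A DNA transposon encodes a transposase, which binds inverted repeats at the ends of the element, cuts the element out and inserts it elsewhere. Most copies in a mammalian genome are short, carry no intact transposase gene and are remnants of old activity. Many lie inside genes, so that a read counted for a subfamily can come from the transcript of a host gene as well as from the element itself. hAT elements (with the Charlie, Tip100 and Blackjack families) and Tc1/mariner elements (Tigger, Mariner and Tc2) are the main groups in mammals, and piggyBac and MULE-type elements are rarer.

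Bulk RNA sequencing was done on 3 libraries from iPSCs with a deleted Srf gene (genotype SRFΔ/Δ, SRF KO) and 3 from iPSCs with the intact floxed gene (SRFf/f, WT). Both were kept in medium with serum, no treatment is given, and the labels do not say whether replicates are separate clones or cultures. The p-values therefore measure the spread between these libraries, which may be technical. Total counts were between 26321602 and 36680156 per library. Srf itself had 84 to 131 counts in SRF KO and 765 to 1326 in WT. DNA transposons held 34071 to 36232 counts in the SRF KO libraries and 38321 to 50139 in the WT libraries. Levels are given as CPM, the usual count scaled to a common library total, with TMM (trimmed mean of M values) factors. Since copy number and length of the subfamilies were not used, levels are compared between libraries and not between subfamilies. All 8 pluripotent cell markers had counts, with 1 higher and 4 lower in SRF KO, and their summed level was 4614 to 4714 CPM in SRF KO against 5491 to 5938 in WT. The summed level of 10 primitive endoderm markers was 1569 to 1689 CPM in SRF KO against 128 to 140 in WT, with all 10 higher. That of 10 fibroblast markers was 1302 to 1596 and 616 to 733 CPM, also with all 10 higher, and no marker of these lists was at 0 in every library. The part of these cell types in the results on transposons was not tested, and fewer cells of a type and less RNA per cell cannot be told apart in bulk RNA.

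The first question was whether the class as a whole differed. Summed over all its rows, it stood at 1266, 1369 and 1224 CPM in SRF KO replicates 1 to 3 and at 1385, 1490 and 1390 CPM in WT replicates 1 to 3. The groups did not overlap, but SRF KO replicate 2 lay close to WT replicates 1 and 3. As a percent of all counts, without TMM factors, the groups overlapped. There SRF KO replicate 2 (0.1372%) exceeded WT replicate 1 (0.1367%). The means were 1286 ± 74.4 and 1421 ± 59.1 CPM (n = 3, SD) for a log2 fold change of -0.15 (SE 0.06). In the quasi-likelihood test of edgeR, adjusted by Benjamini-Hochberg across genes and class sums, the adjusted p was 0.0586 and missed the threshold of 0.05, which 42.9% of these entries passed. Without SRF KO replicate 2 the sum passed, at -0.19, and without WT replicate 2, the highest WT library, it did not, at -0.11. With scaling to total counts it was -0.11 and did not pass (adjusted p 0.111 by edgeR).

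The class was next set against other mobile elements. Relative to retrotransposons with long terminal repeats (LTR) and to LINEs the groups did not overlap, and relative to SINEs they did. Per 100 LTR counts there were 6.80, 6.86 and 6.68 DNA counts in SRF KO and 7.44, 7.61 and 7.65 in WT. Per 100 LINE counts there were 15.6 ± 0.181 in SRF KO and 18.2 ± 0.893 in WT (n = 3, SD). In both measures every SRF KO library was below every WT library. Per 100 SINE counts, the SRF KO libraries had 6.38, 6.72 and 6.51 and the WT libraries 6.57, 6.80 and 6.82. Here SRF KO replicate 2 exceeded WT replicate 1. The exact two-sided permutation test gave p of 0.1 for LTR and LINE and 0.2 for SINE (0.14, 0.14 and 0.2 after adjustment over 7 such measures). With 3 libraries against 3, 0.1 is the smallest p it can give. The class sums themselves had log2 fold changes of 0.01 (SE 0.06) for LTR, 0.07 (SE 0.07) for LINE and -0.10 (SE 0.06) for SINE elements, and none passed the threshold (adjusted p 0.888, 0.478 and 0.156 by edgeR).

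**Figure D1:**
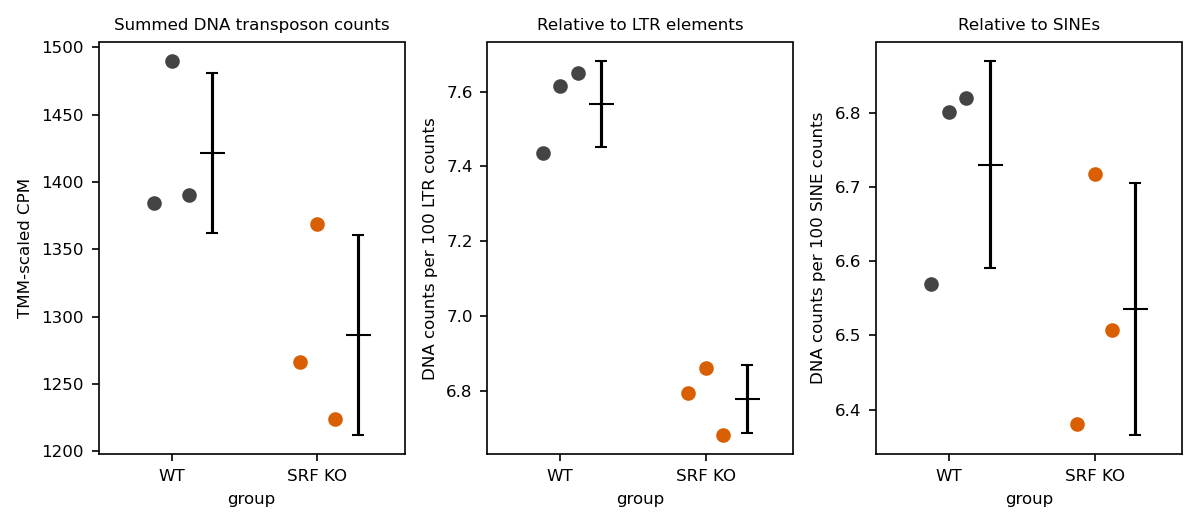
Summed DNA transposon counts in each library as TMM-scaled CPM (left), per 100 LTR counts (middle) and per 100 SINE counts (right); points are libraries, and the bar beside them is the mean with its SD, n = 3. The vertical axes do not start at 0. The SRF KO libraries lie below all WT libraries in the left and middle panels and overlap with them in the right panel.

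Single subfamilies were then tested in the fit over all genes and subfamilies. Of the 148 members, 147 passed the filter on low counts, and MERX, with 7 to 15 counts, did not. At an adjusted p under 0.05, 21 were lower in SRF KO and 1, MamTip1, was higher. These are 14.3% and 0.68% of the members tested. Of all 15611 genes and subfamilies 41.1% were called, with 20.7% lower and 20.4% higher, and of the 833 mobile element subfamilies of all classes 11.0% were lower and 5.88% higher. The share of falls thus lay between both backgrounds, and the share of rises lay under both. In all, 106 members (72.1%) had a fold change below 0, against 52.8% of all entries and 65.5% of all mobile element subfamilies. With TMM factors from the mobile element rows alone it was 88 members (59.9%), against 41.4% of all entries and 50.7% of all mobile element subfamilies. Under the main scaling, the members' median log2 fold change was -0.11, against -0.02 for all entries and -0.08 for all mobile element subfamilies. By class, the median was -0.05 over 489 LTR, -0.07 over 138 LINE and -0.15 over 35 SINE subfamilies. For 39 members every SRF KO library was below every WT library, and for 5 the reverse held. Of all entries, 26.1% and 25.3% were separated in these directions, and of all mobile element subfamilies 20.2% and 9.00%.

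The number of falls depended on single libraries and on the scaling. Leaving out SRF KO replicate 1 or 3 brought it to 7 each, leaving out WT replicate 1 to 10, and DESeq2 gave 10 lower and 1 higher. The share of all entries called in these fits was not set beside these counts. Whether the drop was particular to these members can therefore not be told. With TMM factors taken from the mobile element rows alone, 4 were lower and 2 higher. This scaling moved the median of all entries up by 0.07, to 0.06, and the median of the members to -0.04. The members' median minus that of all entries was -0.10 there and -0.09 under the main scaling. Of all entries, 10.8% were lower and 21.4% higher under that scaling. That scaling kept 5 of the 22 calls (MER105, MMAR1, MamTip1, MamTip3 and Arthur1B), and DESeq2 kept 11.

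Members were then described by their counts. Of the 11 members with a mean of at least 1000 counts, all had a fold change below 0 (8 with TMM factors from the mobile element rows, which move all entries up) and 6 were called lower, or 54.5%. Between 200 and 1000 counts, 19 of 20 were below 0 and 5 were called, or 25%. Between 50 and 200 counts, 29 of 46 were below 0, with 6 called lower (13.0%) and 1 higher, and between 10 and 50 counts, 47 of 70 were below 0 and 4 were called lower (5.71%). In the same order of counts, from 1000 or more down to 10 to 50, 24.7%, 22.5%, 18.9% and 11.2% of all entries were called lower, and 57.4%, 53.3%, 49.8% and 45.3% were below 0. The members' median SE of the log2 fold change fell along this order from 0.23 at 10 to 50 counts over 0.14 and 0.09 to 0.06 at 1000 or more. A difference of the size of the overall median was therefore within 1 SE for most low subfamilies and was not detectable at their depth.

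**Figure D2:**
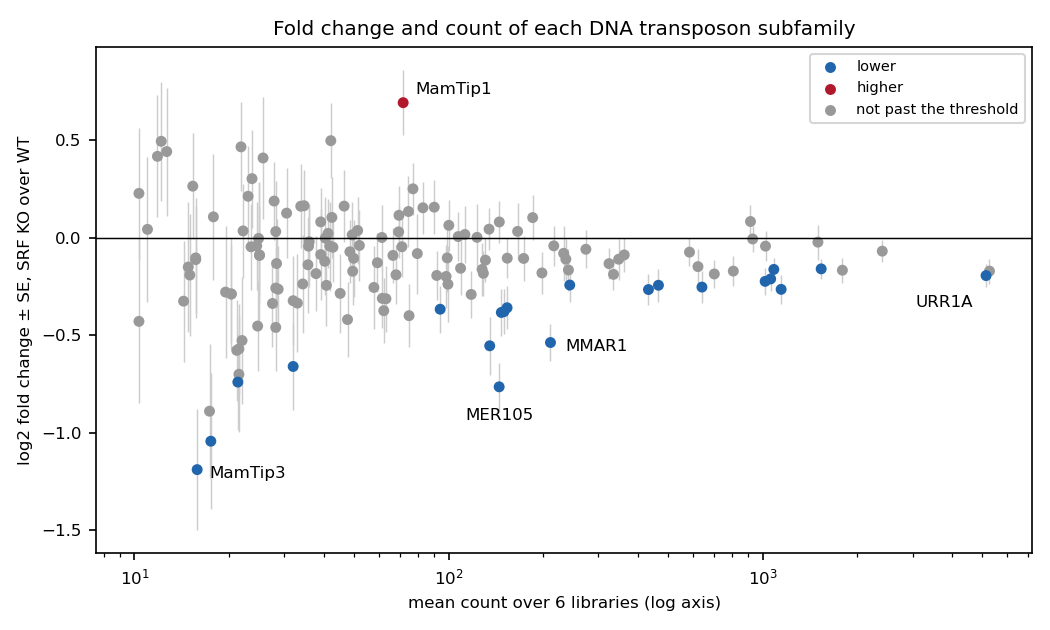
Log2 fold change of SRF KO over WT (vertical axis, with its SE) against the mean count over 6 libraries (horizontal log axis) for the 147 subfamilies tested; blue points were called lower, the red point higher, and grey points did not pass an adjusted p of 0.05. All 11 subfamilies with at least 1000 counts lie below 0 (8 with TMM factors from the mobile element rows), and the widest scatter is at the low counts.

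By family, summed counts of 3 of 12 families were lower at an adjusted p under 0.05. In that fit 43.0% of all genes and family sums were called in either direction. Among all genes and subfamilies, 20.7% were called lower. The 3 families were hAT-Charlie, TcMar-Mariner and the elements that are given no family beyond DNA, most of whose counts were those of MER105. All 12 sums had a fold change below 0. With TMM factors from the mobile element rows 9 did, and TcMar-Tigger, TcMar-Tc2 and MuDR were above 0, each by less than the 0.07 by which that scaling moved the median of all entries. The remaining sums ranged from -0.05 for MuDR to -0.74 for MULE-MuDR, and the latter, with 11 to 43 counts per library, had an edgeR adjusted p of 0.0536. The MULE-MuDR sum passed without WT replicate 3 (-0.93) and with no filter on low counts (-0.74).

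**Figure D3:**
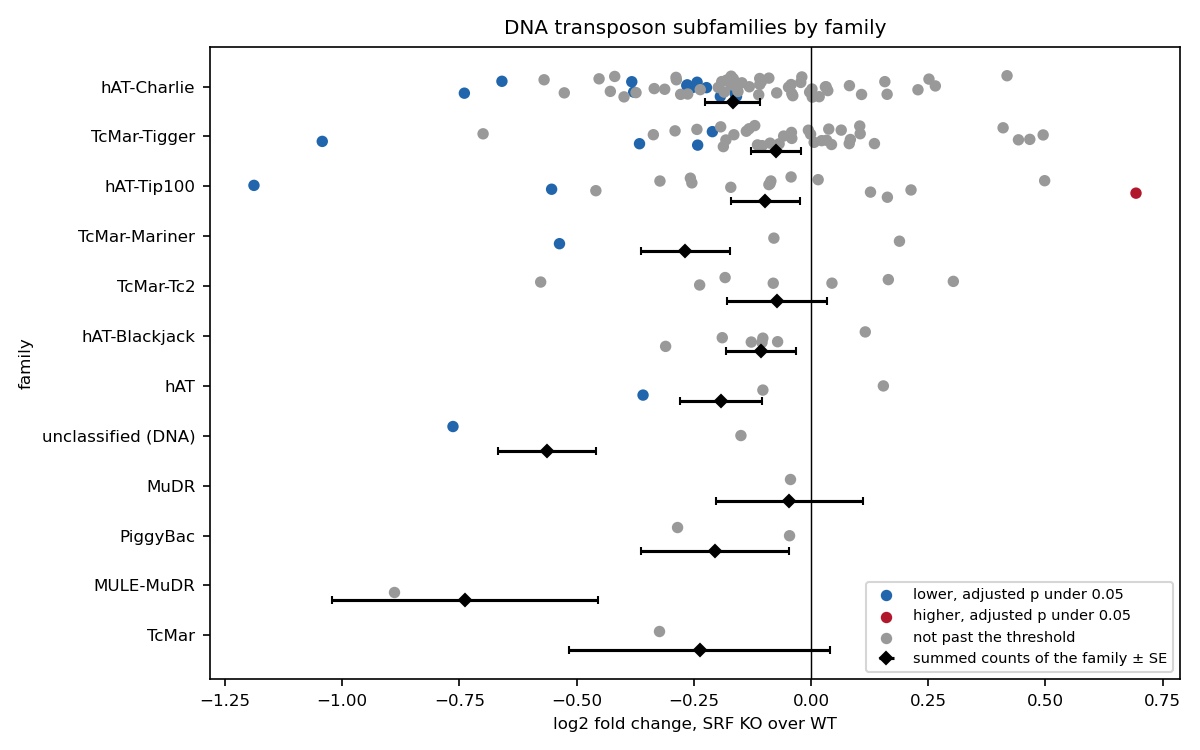
Log2 fold change of SRF KO over WT (horizontal axis) for each subfamily tested, by family (vertical axis, ordered by share of DNA transposon counts); blue points were called lower, the red point higher, grey points neither, and black diamonds are summed family counts with their SE. Every diamond lies below 0 (9 of 12 with TMM factors from the mobile element rows), and the hAT-Charlie row holds 12 of the 21 falls.

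The hAT-Charlie family, the largest group of hAT elements in mammals, took 69.0% of all DNA transposon counts. Its sum was 866, 942 and 834 CPM in SRF KO against 961, 1037 and 966 CPM in WT, with the highest SRF KO library just under the lowest WT library. The log2 fold change was -0.17 (SE 0.06, adjusted p 0.0365 by edgeR). Leaving out SRF KO replicate 1 (-0.16) or 3 (-0.13), or WT replicate 1 (-0.19), ended the call, as did scaling to total counts (-0.13) or to mobile element rows (-0.09). Of the 64 members, 50 had a fold change below 0, 12 were called lower and none was called higher (6 of the 12 are named by rule, and MER33, Charlie1, MER5A, MER58A, Charlie15b and Charlie20a after their values were seen). At an unadjusted edgeR p under 0.05, and by DESeq2, 0 were higher too. The 12 are 18.8% of the family, against 20.7% lower among all entries and 11.0% among all mobile element subfamilies. That share was near the first background and above the second. Of these backgrounds, 20.4% and 5.88% were called higher. The median was -0.16.

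URR1A and URR1B are rodent-specific members and were the most abundant, together 26.7% of all DNA transposon counts. URR1A stood at 160, 178 and 161 CPM in SRF KO against 181, 203 and 187 CPM in WT. No SRF KO library reached the WT range, and the log2 fold change was -0.19 (SE 0.06, adjusted p 0.0239 by edgeR). URR1B had 171, 184 and 162 CPM in SRF KO against 184, 210 and 188 CPM in WT, where the nearest libraries almost met, with a log2 fold change of -0.17 that did not pass (adjusted p 0.0529 by edgeR). Leaving out SRF KO replicate 1 or 3 ended the call of URR1A (-0.16 and -0.17), while URR1B passed without SRF KO replicate 2 (-0.21) or WT replicate 3 (-0.20). The other members listed as rodent-specific, RMER30 and RCHARR1, had log2 fold changes of -0.17 and -0.04 (adjusted p 0.0907 and 0.694 by edgeR). That list went by name, so other members may be rodent-specific as well. RMER30 was 26.3 ± 0.934 CPM in SRF KO against 29.7 ± 2.67 CPM in WT, and RCHARR1 35.0 ± 3.65 and 36.0 ± 1.46 CPM (n = 3, SD), where the groups overlapped.

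Older hAT-Charlie subfamilies are shared among mammals. Charlie1a had 36.6, 38.9 and 32.5 CPM in SRF KO against 43.6, 45.6 and 40.4 CPM in WT. All SRF KO libraries were below the WT range (log2 fold change -0.26, SE 0.08, adjusted p 0.0153 by edgeR). MER5A1 had 12.7, 14.1 and 14.0 CPM in SRF KO against 15.6, 15.9 and 17.5 CPM in WT (-0.26, SE 0.08, adjusted p 0.0205 by edgeR). MER58C had 32.1, 34.8 and 30.7 CPM against 38.3, 39.8 and 35.8 CPM in WT (-0.22, SE 0.07, adjusted p 0.0209 by edgeR). In both, the groups again did not overlap. MER102b went from 5.85 ± 0.530 CPM in WT to 4.51 ± 0.380 in SRF KO, and Charlie4z from 5.74 ± 0.233 to 4.42 ± 0.586 CPM (n = 3, SD). Both had a log2 fold change of -0.38 (SE 0.12, adjusted p 0.0210 and 0.0235 by edgeR). MER20, named after its values were seen, had 58.7 ± 3.07 CPM in SRF KO against 65.8 ± 4.53 CPM for WT (n = 3, SD) and did not pass (-0.17, adjusted p 0.0544 by edgeR), but did without WT replicate 3 (-0.20).

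These smaller falls each lost their call when certain single libraries were left out, while their fold changes stayed below 0. A fit with fewer libraries also has less power, so a lost call is not a lost fall. Without SRF KO replicate 1 the calls of MER5A1 (-0.22), MER58C (-0.21), MER102b (-0.38) and Charlie4z (-0.41) were lost, and without SRF KO replicate 3 those of Charlie1a (-0.19), MER58C (-0.18), MER102b (-0.31) and Charlie4z (-0.28). Without WT replicate 1 the calls of MER58C (-0.22) and Charlie4z (-0.36) were lost, and without WT replicate 3 those of MER5A1 (-0.21) and MER102b (-0.31). The other falls of the family were MER33 (-0.25), Charlie1 (-0.24), MER5A (-0.16), MER58A (-0.16), Charlie15b (-0.66) and Charlie20a (-0.74, with 12 to 34 counts per library), as log2 fold changes. Each of these 6 calls was lost when at least 1 library was left out. Names split the family into 24 members called MER, mostly short elements without a transposase, and 34 called Charlie. The medians of these were -0.16 and -0.12, with 6 (25%) and 5 (14.7%) called lower. Of all entries 20.7% were called lower, and of all mobile element subfamilies 11.0%.

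TcMar-Tigger, relatives of the pogo element of flies, took 23.8% of DNA transposon counts. Its sum was 311, 332 and 300 CPM in SRF KO against 327, 341 and 325 CPM in WT, so that the groups overlapped. The log2 fold change was -0.07 (SE 0.05, adjusted p 0.283 by edgeR). MER2, its most abundant subfamily, was 81.5 ± 3.96 CPM in SRF KO against 85.4 ± 4.47 CPM for WT (n = 3, SD, log2 fold change -0.07, adjusted p 0.371 by edgeR). Of 39 members tested, 24 (61.5%) had a fold change below 0 and 4 (10.3%) were called lower, with a median of -0.06. Of all entries 52.8% were below 0 and 20.7% called lower. Of all mobile element subfamilies these were 65.5% and 11.0%, so that the family was near or under both backgrounds in its calls. Tigger7 had 33.3, 36.3 and 32.6 CPM in SRF KO against 38.2, 40.2 and 39.8 CPM in WT. Its groups did not overlap, and the log2 fold change of -0.21 (SE 0.06) had an edgeR adjusted p of 0.0183. This call was lost without SRF KO replicate 1 (-0.19) or 3 (-0.18). The other 3, named after their values were seen, were Tigger2b (-0.37), MER2B (-0.24) and MER127, which had 6 to 13 counts in SRF KO and 16 to 30 in WT (-1.04). MER2B lost its call whichever library was left out (-0.20 to -0.26), Tigger2b without any library but WT replicate 2 (-0.33 to -0.39), and MER127 without SRF KO replicate 3 (-0.72), WT replicate 1 (-1.02) or WT replicate 2 (-0.85).

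The makeup of the class was compared directly between both large families. hAT-Charlie took 68.4%, 68.8% and 68.2% of the DNA transposon counts in SRF KO and 69.4%, 69.6% and 69.5% in WT. TcMar-Tigger took 24.6%, 24.3% and 24.5% in SRF KO and 23.6%, 22.9% and 23.4% in WT. The groups did not overlap in either share. Both are parts of the same total and make up most of it, so they are not separate results. The exact two-sided permutation p was 0.1 for each, the smallest that the design allows, and 0.14 after adjustment over the 7 measures.

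Mariner elements belong to the same superfamily as Tigger. The sum of the 3 TcMar-Mariner subfamilies was 14.2, 15.8 and 14.6 CPM in SRF KO against 16.0, 20.3 and 17.5 CPM in WT. SRF KO replicate 2 lay close under WT replicate 1, and the log2 fold change was -0.27 (SE 0.10, adjusted p 0.0383 by edgeR). Of the 3 subfamilies, MMAR1 was the one called. It had 161, 155 and 172 counts in SRF KO and 308, 238 and 232 in WT. On the scaled level these were 5.98, 5.85 and 5.95 CPM against 8.50, 9.25 and 8.09 CPM, with a wide gap between the groups. The log2 fold change was -0.54 (SE 0.09, adjusted p 0.000786 by edgeR). MARNA had 7.89 ± 0.830 CPM in SRF KO against 8.42 ± 1.71 CPM in WT, and MADE2, named after its values were seen, 1.04 ± 0.122 and 0.911 ± 0.0580 CPM (n = 3, SD). Neither passed the threshold (adjusted p 0.690 and 0.512 by edgeR), and their groups overlapped. The family sum was no longer called without SRF KO replicate 1 (-0.24) or 3 (-0.26) or WT replicate 2 (-0.17), nor with scaling to total counts (-0.23) or mobile element rows (-0.19), and MARNA stood at 0.07 without WT replicate 2.

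The smallest adjusted p of all members was that of MER105, which has no family assigned beyond DNA. MER105 had 104, 102 and 98 counts in SRF KO and 201, 177 and 187 in WT. Scaled, these were 3.87, 3.85 and 3.39 CPM against 5.55, 6.88 and 6.52 CPM. The lowest WT library was well above the highest SRF KO library, with a log2 fold change of -0.76 (SE 0.12, adjusted p 0.000431 by edgeR). The other member without a family, MER126 (named after its values were seen), had 7 to 17 counts in SRF KO and 13 to 23 in WT and did not pass (-0.15, adjusted p 0.753 by edgeR). The sum of all 11 rows of this kind had a log2 fold change of -0.56 (SE 0.10, adjusted p 0.00101 by edgeR). MER105 held most of its counts, 104 of 140, 102 of 139 and 98 of 134 in SRF KO. In WT it held 201 of 249, 177 of 201 and 187 of 219. The sum is therefore not a result separate from MER105.

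The hAT-Tip100 family held changes in both directions. MamTip1, the one member called higher, had 80, 90 and 85 counts in SRF KO and 84, 40 and 51 in WT. After scaling it stood at 2.97, 3.40 and 2.94 CPM in SRF KO against 2.32, 1.55 and 1.78 CPM in WT. All SRF KO libraries were above the WT range, and the log2 fold change was 0.69 (SE 0.17, adjusted p 0.00613 by edgeR). MamTip3 moved the other way, from 25, 24 and 19 counts in WT to 8, 6 and 13 in SRF KO. Scaled, it stood at 0.324 ± 0.114 CPM in SRF KO against 0.762 ± 0.149 CPM for WT (n = 3, SD), a log2 fold change of -1.19 (SE 0.31, adjusted p 0.00965 by edgeR). Arthur1B had 3.57, 4.12 and 3.66 CPM in SRF KO against 5.27, 6.80 and 4.67 CPM in WT, without overlap (-0.55, SE 0.15, adjusted p 0.0105 by edgeR). FordPrefect, named after its values were seen, was 1.73 ± 0.131 CPM in SRF KO against 1.21 ± 0.242 CPM for WT (n = 3, SD, log2 fold change 0.50) and did not pass (adjusted p 0.0559 by edgeR). FordPrefect passed without WT replicate 1 (0.64) and with scaling to total counts (0.54) or mobile element rows (0.57). The family sum overlapped between groups, at 24.9 to 27.6 CPM in SRF KO against 26.6 to 30.3 CPM in WT (-0.10, SE 0.07, adjusted p 0.308 by edgeR).

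The small families gave few calls. hAT-N1_Mam, of the hAT elements with no named family, had 4.61, 4.42 and 4.91 CPM in SRF KO against 5.63, 6.61 and 5.72 CPM in WT. It did not overlap between groups (-0.36, SE 0.11, adjusted p 0.0218 by edgeR), though the call was lost without SRF KO replicate 1 (-0.35) or 2 (-0.32). No member of hAT-Blackjack, TcMar-Tc2, PiggyBac, MuDR, MULE-MuDR or TcMar passed the threshold with all 6 libraries and the filter on low counts, in edgeR or in DESeq2, and 2 of their 19 members had an unadjusted edgeR p under 0.05. MER63B, the most abundant hAT-Blackjack subfamily, and Kanga1c, the most abundant TcMar-Tc2 subfamily, had log2 fold changes of 0.12 (SE 0.15) and 0.04 (SE 0.11), with edgeR adjusted p of 0.574 and 0.777. Their levels were 2.51 ± 0.277 and 4.75 ± 0.283 CPM in SRF KO against 2.33 ± 0.237 and 4.62 ± 0.233 CPM for WT (n = 3, SD). Looper, a piggyBac-type element, and Ricksha_c, a MULE-type element, were named after their values were seen. They had log2 fold changes of -0.28 (SE 0.20) and -0.89 (SE 0.34), with edgeR adjusted p of 0.294 and 0.0565. Ricksha_c passed without WT replicate 3 (-1.14) and with no filter on low counts (-0.89).

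Between these calls and the rest stood 22 subfamilies whose groups did not overlap but which did not pass the threshold, 18 lower and 4 higher in SRF KO. With the called ones these make up the 39 and 5 members of 147 given above, against 26.1% and 25.3% of all entries, so that separation downward was near the background. They are named after their values were seen. Of the lower ones, MER3 was 22.8 ± 1.06 CPM in SRF KO against 25.9 ± 1.5 CPM for WT, and Tigger17a 10.8 ± 0.534 against 12.3 ± 0.241 CPM (n = 3, SD), with log2 fold changes of -0.19 each. The largest difference among the 18 was that of Charlie17a, at -0.57, with a mean of 21.5 counts per library (adjusted p 0.0702 by edgeR). The 4 higher ones were FordPrefect (0.50), MER47A (0.50), Tigger8 (0.47) and Charlie7 (0.25), as log2 fold changes. Charlie7 had the most counts of these, a mean of 77.0 per library, and MER47A the fewest, 12.2.

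In all 22 called subfamilies the SRF KO and WT libraries did not overlap. The calls rest on the same libraries, so this is not separate support for them. MER105, MMAR1, MamTip1 and MamTip3 were called under each of the 12 alternatives tried on single subfamilies, and Arthur1B under all but the stricter threshold of 0.01. The other 17 each lost the call without at least 1 library.

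**Figure D4:**
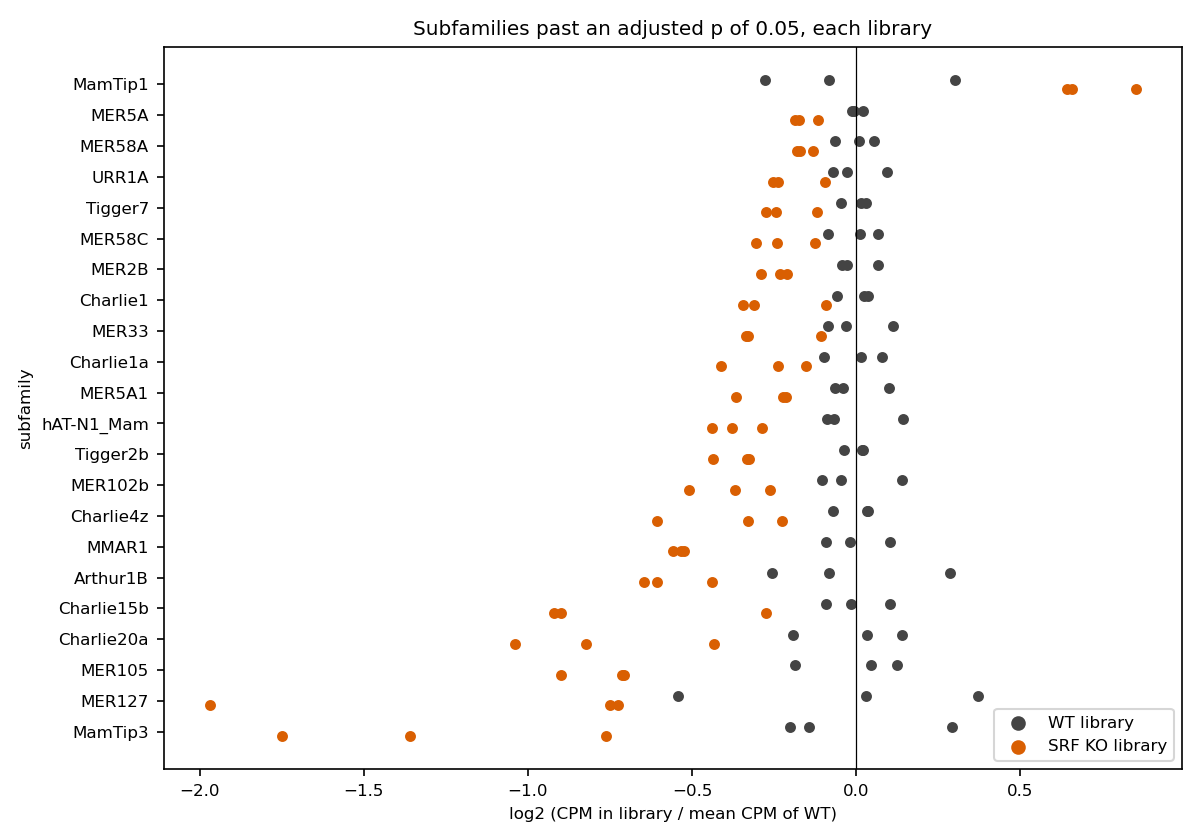
Level of each of the 22 called subfamilies (vertical axis) in each library, as log2 of its CPM over the mean CPM of WT (horizontal axis); dark points are WT libraries and orange points SRF KO libraries. MER105 and MMAR1 show a wide gap between the groups, whereas for URR1A, Charlie1 and MER33 the nearest SRF KO and WT libraries almost meet.

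Mammalian genomes also keep transposase genes that were turned into host genes. A list of 28 such genes was examined, of which 27 had a row, with Thap12 under its older symbol Prkrir. Of these, 24 passed the filter on low counts. In SRF KO, 6 were higher and 8 lower at an adjusted p under 0.05, against the 20.4% higher and 20.7% lower among all entries, and the median log2 fold change was -0.12. With TMM factors from the mobile element rows, 6 were higher and 2 lower. Tigd4, Rag1 and Rag2, the last of these at 0 in every library, had at most 2 counts in any library.

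Of 8 genes of the pogo lineage tested, 3 were higher and 1 lower, and of 4 Zbed genes, from hAT elements, 1 was higher and 2 lower. Cenpb, which encodes a centromere protein from a pogo-like transposase, rose from 44.9, 42.8 and 48.5 CPM in WT to 62.0, 58.2 and 64.2 CPM in SRF KO (log2 fold change 0.44, SE 0.06, adjusted p 0.000186 by edgeR). The gap between the groups was wider than the range within either. Tigd5, of the same lineage, had 26 to 30 counts in SRF KO and 15 to 16 in WT (0.98, SE 0.24, adjusted p 0.00595 by edgeR). Tigd5 was therefore a rise at a low level, 1.03 ± 0.0716 CPM in SRF KO against 0.531 ± 0.106 CPM for WT (n = 3, SD). Of the hAT-derived genes, Zbed3, a regulator of Wnt signalling through Axin, rose from 14.1 ± 0.335 to 19.8 ± 0.790 CPM and Zbed4 fell from 80.8 ± 1.84 to 63.9 ± 1.64 CPM (n = 3, SD). Their log2 fold changes were 0.49 (SE 0.07) and -0.34 (SE 0.05), with edgeR adjusted p of 0.000212 and 0.000214.

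Of 7 THAP genes tested, which come from P element-like transposases, 2 were higher and 3 lower, and of 2 piggyBac-derived genes 1 was lower. Thap3 fell from 11.0, 7.58 and 10.2 CPM in WT to 6.43, 6.69 and 6.46 CPM in SRF KO (-0.56, SE 0.13, adjusted p 0.00431 by edgeR). WT replicate 2 was the WT library nearest to SRF KO. Prkrir (Thap12), a further gene of the THAP family, rose from 59.3 ± 5.59 to 71.1 ± 1.98 CPM (n = 3, SD, 0.26, SE 0.07, adjusted p 0.00812 by edgeR), and this call was lost without WT replicate 1 (0.20). Harbi1, from a Harbinger transposase, fell from 16.8 ± 0.459 to 13.9 ± 0.128 CPM and Pgbd5, from a piggyBac transposase, from 3.11 ± 0.456 to 2.10 ± 0.190 CPM (n = 3, SD). Their log2 fold changes were -0.28 (SE 0.07) and -0.57 (SE 0.15), with edgeR adjusted p of 0.00714 and 0.0118. With TMM factors from the mobile element rows both calls were lost (-0.21 and -0.50).

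The other calls of this list, named after their values were seen, were 2 higher and 4 lower. Pogk (0.53) and Thap1 (0.24) were higher, and Thap2 (-0.34), Tigd2 (-0.30), Thap4 (-0.21) and Zbed6 (-0.17) lower, as log2 fold changes. Each lost its call without at least 1 library. These were SRF KO replicate 1 (0.48) or 3 (0.43) for Pogk, SRF KO replicate 3 (0.24) for Thap1, and any of the 3 SRF KO replicates (-0.27 to -0.33) for Tigd2. Thap2 lost it without SRF KO replicate 1 or 2 or WT replicate 1 or 3 (-0.27 to -0.35) and in DESeq2 (-0.33), and Thap4 without the same 4 libraries (-0.15 to -0.22). Zbed6 lost it without SRF KO replicate 1 (-0.15) or 3 (-0.15) or WT replicate 1 (-0.19). With TMM factors from the mobile element rows all 4 falls were lost, and with scaling to total counts those of Thap4 (-0.17) and Zbed6 (-0.14). Zbed6, a repressor of Igf2 that lies within an intron of its host gene Zc3h11a, was the most abundant by counts, with 3853 to 4184 in SRF KO and 4547 to 5906 in WT, and reads of Zbed6 and of its host gene may not have been told apart. Pogz, a chromatin protein with a pogo-like domain, had SRF KO libraries of 114, 114 and 119 CPM and WT libraries of 128, 120 and 120 CPM. These did not overlap, but the difference did not pass (-0.09, adjusted p 0.183 by edgeR).

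**Figure D5:**
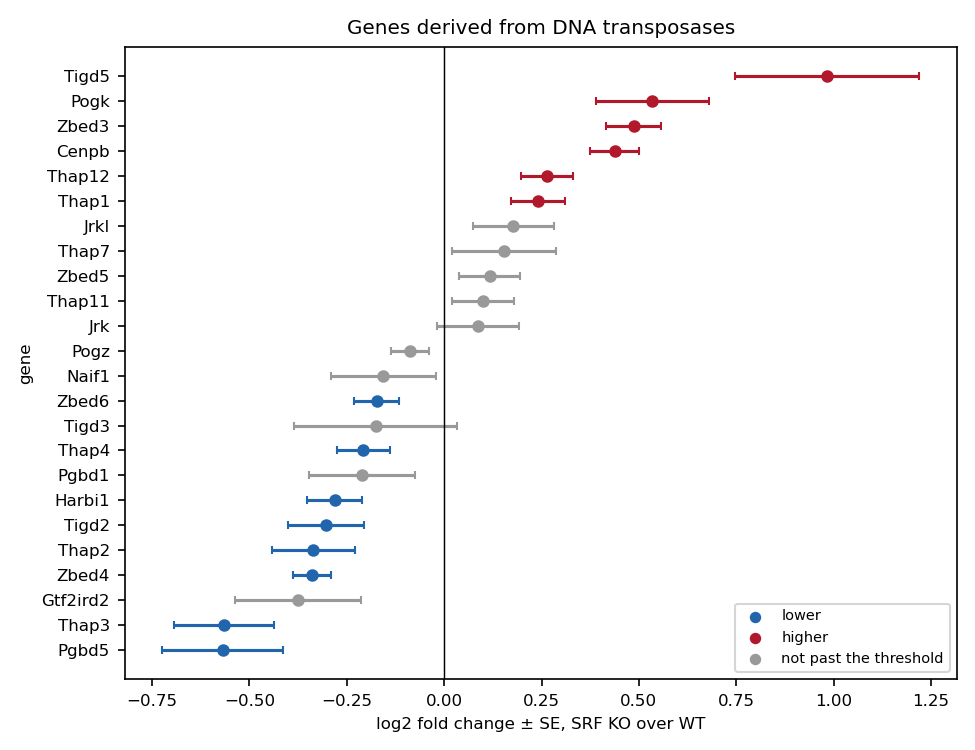
Log2 fold change of SRF KO over WT with its SE (horizontal axis) for the 24 transposase-derived genes tested (vertical axis); red genes were higher, blue genes lower, and grey genes did not pass an adjusted p of 0.05. Tigd5 has the largest rise of the list, at 0.98, and Pgbd5 and Thap3 the largest falls, at -0.57 and -0.56.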

How the data were processed

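Bulk RNA of 3 SRF KO and 3 WT iPSC samples was sequenced with paired reads of 150 bp, which were cleaned of adaptors, of low quality sequence and of empty reads, per the labels' protocols. The deposited table holds whole-number counts per gene and per mobile element subfamily, not normalized, judged from its values. The submitters' processing notes name mm10 and DESeq2 without a role. The aligner, the counting program, strand use and the treatment of reads that fit several copies are not given in the sources used here, so that reads shared between similar subfamilies (such as URR1A and URR1B) may have been split, assigned to 1 or dropped.

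All entries were fitted together with edgeR 4.0.16 in R 4.3.3. The steps were filterByExpr with a minimum count of 10, TMM scaling, the quasi-likelihood test and Benjamini-Hochberg adjustment over all 15611 entries tested, at a threshold of 0.05. Families and classes were tested as summed rows in place of the subfamilies, with all genes kept. The sums also hold rows under the minimum of the member rule. The SE is the absolute log2 fold change over the root of the test's F statistic. Counting error alone leaves up to 3 counts undetected, 0.0828 to 0.117 CPM. Each library was counted as 1 replicate. Replicate libraries differed by more than sampling noise (chi-square per degree of freedom 1.83 to 15.5). The highest values were those of WT replicate 2, 12.9 and 15.5 with the other WT libraries, against 3.80 between WT replicates 1 and 3. This spread does not show whether the libraries are separate clones or cultures, since it may be technical. Shares between classes were compared by exact permutation of the 6 libraries. Scripts were tested on simulated data.

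Named subfamilies were up to 12 called per direction by smallest p, the most abundant of each family with at least 3 members, and those listed by name as rodent-specific. Named genes were Srf and up to 4 transposase-derived genes per direction. The members, lists and rules were chosen with earlier results of these data known. Alternatives were DESeq2 1.42.0, total-count scaling, TMM from mobile element rows, no filter, an adjusted p of 0.01, a mean of 50 counts, each library left out, and the replicate number as a block. Consensus sequences of the elements were not used.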

Additional observations from a re-analysis of the deposited data

How the results depend on the processing

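For the counts, the median and the class sum together, 50 values under an alternative stayed the same (call and direction kept, or within 1.5 times or 1 SD), 21 moved and 3 became stronger. The number of subfamilies lower (21) was 10 under DESeq2, 4 with TMM from mobile element rows and 3 at an adjusted p of 0.01, and the number higher (1) was 2 with TMM from mobile element rows and 2 with total-count scaling. Leaving out 1 library gave 7 to 20 lower and 1 to 2 higher, with no share of all entries set beside these. The median was -0.040 with TMM from mobile element rows, where that of all entries was 0.06 in place of -0.02. The class sum passed with no filter (-0.15) and without SRF KO replicate 2 (-0.19), and ranged from -0.11 to -0.19 when 1 library was left out. Families called (3) were 1 under total-count scaling, TMM from mobile element rows or an adjusted p of 0.01, and 1 to 4 when 1 library was left out. Transposase-derived genes called (14) were 8 with TMM from mobile element rows, 7 at an adjusted p of 0.01, and 9 (without SRF KO replicate 1) to 14 when 1 library was left out. The cause was not tested, except that a stricter p lowers counts by construction.

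Replicate numbers share no pairing in the labels, and the correlations of same-numbered deviations were 0.042, 0.203 and 0.096, not all over 0.1. Of the 6 libraries, 4 correlated best with the library of their own number. With a replicate block, 26 subfamilies were lower and 2 higher, 5 families were called, and the class sum passed (-0.15).

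None of the values that changed sign was called in either fit. With TMM from mobile element rows, MuDR (0.030), TcMar-Tc2 (0.0060), TcMar-Tigger (0.0012), MER2 (0.0069) and RCHARR1 (0.029) were above 0. Leaving out 1 library, the range was -0.13 to 0.075 for MuDR (also 0.023 without SRF KO replicate 2), -0.14 to 0.057 for TcMar-Tc2, -0.41 to 0.016 for TcMar, -0.24 to 0.072 for MARNA, -0.32 to 0.14 for MER126 (also 0.023 without WT replicate 1) and -0.12 to 0.018 for RCHARR1. Of the single sums, subfamilies and genes, 559 values stayed the same, 154 were weaker, 18 stronger and 13 reversed. Depth limits the subfamilies with 10 to 50 counts most, where the median SE was 0.23 on the log2 scale.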
